A study of Mus musculus with 8 samples.

Results

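Meningeal and perivascular fibroblasts were followed through 10 marker genes, Lum, Dcn, Ogn, Dpt, Islr, Slc6a13, Aldh1a2, Crabp2, Twist1 and Igf2. They were taken as all probe sets annotated to 1 of these symbols and to no other, which gave 13 of the 45101 probe sets on the array and 10 of the 18194 named genes. The RNA came from fragments of small vessels pulled out of dissociated newborn brains (postnatal day 1) with magnetic beads against PECAM, an endothelial surface protein, so fibroblasts were present only as far as they stayed attached to vessels or were carried along. The 4 mutant brains held a knock-in allele of the PDGF receptor beta gene, Pdgfrb, with the substitution D849V, which leaves the receptor active without ligand. The 4 control brains carried wild-type Pdgfrb. The background of all 8 mice was mixed (129S/J), and each brain was hybridised to its own array. In which cells the allele was expressed was not measured here. Pericytes express Pdgfrb, and brain fibroblasts are known to express it too.

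Fibroblasts of the brain sit in the leptomeninges that wrap its surface and around the larger vessels that enter it, outside the smooth muscle layer. They lay down collagens and small leucine-rich proteoglycans, and in the developing head the meninges also make retinoic acid and growth factors that act on the brain beneath. In this tissue they are usually told from pericytes, which also express Pdgfrb, by collagens, decorin, lumican and Pdgfra.

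Among the fibroblast markers Twist1, a transcription factor of the mesenchyme, rose 1.38-fold in mutant microvessels. No other member passed the test, with differences from -0.66 (Ogn) to 0.50 (Igf2) on the log2 scale. Lum, Dcn, Ogn, Islr and Aldh1a2 varied together from brain to brain within genotypes. Slc6a13 and Crabp2 ran the same way but did not pass. Astrocyte and oligodendrocyte lineage markers also moved with the members (median r of 0.89 and 0.84), so moving together was not particular to fibroblast markers. The share of all genes with such an r was not counted. From mutant array 1 to mutant array 4 the median difference of Lum, Dcn, Ogn, Islr, Slc6a13, Aldh1a2 and Crabp2 was 1.22 on the log2 scale. That lies between single arrays picked after their values were seen, and is no like measure to a difference of genotype means. Of the 10 genes, 9 were bright enough to test (a log2 value above 4 on at least 4 of the 8 arrays), and Dpt was not. With limma and Benjamini-Hochberg adjustment over all 11446 genes tested, 1 of the 9 rose and none fell, against 4.58% of all genes that changed, 2.66% that rose and 1.92% that fell. At an unadjusted p under 0.05 the count was 3, Twist1, Igf2 and Ogn, against 20.6% of all genes. The median difference, mutant minus control, was -0.03 over the 9 members and -0.11 over all genes tested, on the log2 scale. Of the members, 4 had a positive difference and 5 a negative one, where 30.9% of all genes tested were positive. The genotypes were fully separated, with no overlap, in 1 member, against 14.5% of all genes tested. These are bulk samples, in which fewer cells of a type and less RNA per cell cannot be told apart.

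Of the facts that concern all genes, the arrays correlated at 0.988 to 0.995 within genotypes and 0.977 to 0.991 between them (Pearson, over all probe sets), and no pair was identical. The labelled tissue carried its markers: the 10 endothelial markers, with Pecam1 and Cdh5 among them, averaged 11.25 to 11.81 on the mutant arrays and 11.59 to 12.05 on the control arrays (log2), and the 10 pericyte markers 9.99 to 10.40 and 10.03 to 10.47. None of either list lay within 0.5 of the lowest value, 2.18, on all arrays. Transcripts of other brain cells were present too. Over the 8 arrays Ttr of the choroid plexus list read 16.16 to 16.49, and Fabp7 of the astrocyte and radial glia list 14.06 to 15.14. The brighter probe set of Pdgfrb differed by -1.01 (limma adjusted p = 0.00232 over all probe sets) and the dimmer one by 0.09 (adjusted p = 0.887), and neither checks the labels, since a substitution need not change transcript level. Interferon response genes were far higher in the mutants, 8 of 8 tested, with a median difference of 6.36, and so were microglia and macrophage markers, 8 of 10, whose mean ran from 9.10 to 10.03 on the mutant arrays and from 7.12 to 8.13 on the control arrays. Y-linked transcripts were seen on 5 arrays, 3 mutant and 2 control.

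**Figure D1:**
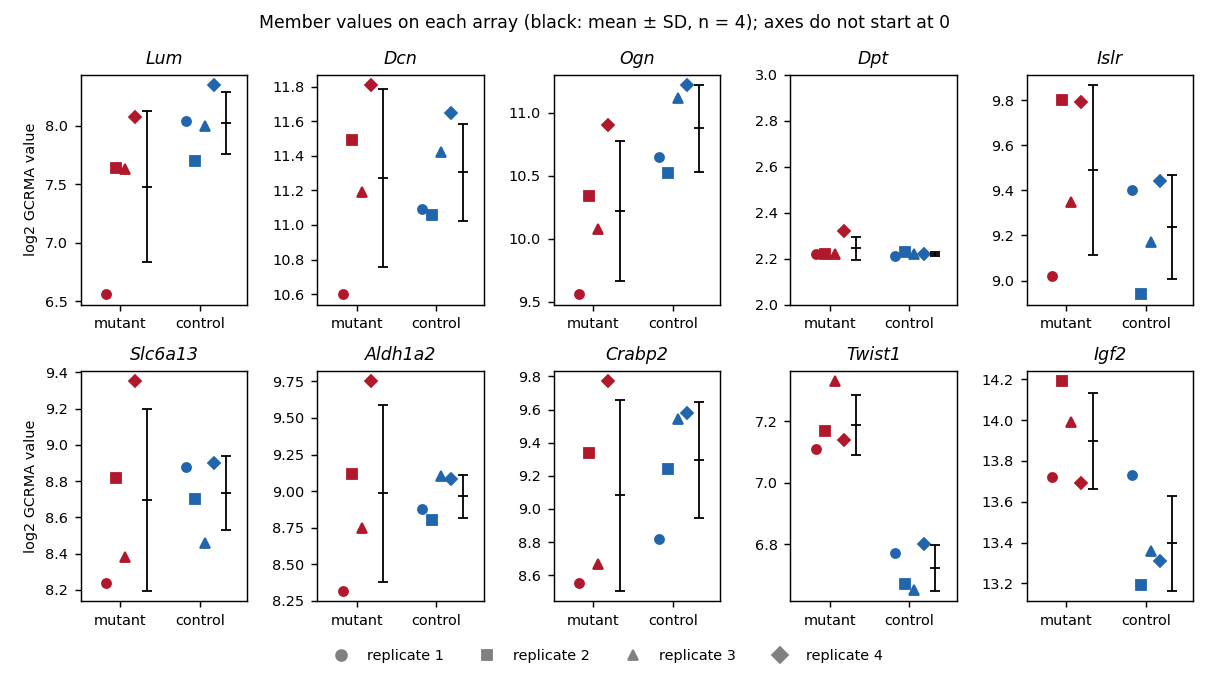
Log2 GCRMA value of the brightest probe set of each of the 10 members on every array, with 4 mutant arrays (red, left) and 4 control arrays (blue, right) in each panel; marker shapes give the replicate number, and black bars the mean ± SD. Twist1 is separated by genotype, Dpt lies at the bottom of the scale, and mutant array 1 is the lowest mutant point for Lum, Dcn, Ogn, Islr, Slc6a13, Aldh1a2 and Crabp2.

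Twist1 encodes a basic helix-loop-helix factor of mesenchymal and neural crest cells, and its probe set was the only one of the 13 to separate the genotypes. It read 7.11, 7.17, 7.33 and 7.14 on mutant arrays 1 to 4, against 6.77, 6.67, 6.65 and 6.80 on control arrays 1 to 4 (log2 values). Every mutant array was thus above every control array, with a gap of 0.31 between the closest of them. It averaged 7.18 ± 0.10 in mutants and 6.72 ± 0.07 in controls (± SD over 4 arrays each), and differed by 0.46 (SE 0.0845, 95% interval 0.27 to 0.66, limma adjusted p = 0.0193). Over all 22310 probe sets tested, of which 2.63% changed, the adjusted p was 0.0323, and that call was lost when any 1 of the 8 arrays was left out. In the fit with 1 probe set a gene the call rested on 3 arrays: the difference was 0.415 without mutant array 3 (limma adjusted p = 0.071), 0.44 without control array 2 (0.0563) and 0.44 without control array 3 (0.0687). The microglia markers and interferon genes given above moved with genotype on the same arrays, and their part in this difference was not tested.

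The stretch around the transcription start of Twist1 is shown because it is the member that changed. Those of Ogn and Aldh1a2 are shown as examples of the genes that rose and fell together over the brains. Each is 300 bases from RefSeq on GRCm38.p6, 250 before and 50 after the start, in the direction of transcription, with capitals for E-boxes (CANNTG, the core bound by Twist1 and other basic helix-loop-helix factors, which reads the same on both strands).
Twist1 chr12:33957421-33957720 (+): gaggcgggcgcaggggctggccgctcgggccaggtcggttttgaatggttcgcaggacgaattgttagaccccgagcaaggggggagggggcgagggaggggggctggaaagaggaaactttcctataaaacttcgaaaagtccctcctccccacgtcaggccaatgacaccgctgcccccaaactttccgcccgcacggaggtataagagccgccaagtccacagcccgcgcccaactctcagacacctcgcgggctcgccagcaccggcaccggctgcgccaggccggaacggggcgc
Ogn chr13:49607765-49608064 (+): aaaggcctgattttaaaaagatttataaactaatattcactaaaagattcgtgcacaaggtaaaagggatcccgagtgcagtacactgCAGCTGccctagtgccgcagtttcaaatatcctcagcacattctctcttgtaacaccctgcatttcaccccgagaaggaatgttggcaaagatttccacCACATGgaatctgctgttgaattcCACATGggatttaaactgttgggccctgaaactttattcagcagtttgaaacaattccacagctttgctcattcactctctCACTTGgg
Aldh1a2 chr9:71215539-71215838 (+): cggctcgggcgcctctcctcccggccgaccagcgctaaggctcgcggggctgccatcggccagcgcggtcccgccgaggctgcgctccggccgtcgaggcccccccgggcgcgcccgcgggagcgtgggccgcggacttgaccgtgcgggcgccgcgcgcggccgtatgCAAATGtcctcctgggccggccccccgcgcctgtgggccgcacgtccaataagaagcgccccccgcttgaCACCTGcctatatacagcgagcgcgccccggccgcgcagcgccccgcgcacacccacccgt
The Twist1 window held 0 E-boxes, the Ogn window 4 and the Aldh1a2 window 2, where 72.1% of 27025 such windows, 1 a gene, held at least 1. The windows of Ogn and Aldh1a2 were of very different composition. G and C made up 42.3% of the bases of Ogn, 78.0% of Aldh1a2 and 66.0% of Twist1, against a median of 52.7%, and the CpG counts were 4, 50 and 27, against a median of 7. The letters of a TATA box (TATAAA on either strand, found in 14.2% of windows) were matched 2 times in Ogn, 1 time in Twist1 and 0 times in Aldh1a2. The 2 matches in Ogn overlap in 1 stretch that was read on both strands. Where a match lay relative to the start was not taken into account. Of the 10 members 7 had a window, and Lum, Dcn and Crabp2 did not. The window of Islr, which also moved with the members, is not shown. It held 1 E-box, 1 CpG and 57% G and C. These matches describe letters in a window and no factor's binding was measured.

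Of 13 other mesenchymal transcription factors tested, none passed (limma, adjusted over all genes; 1 at an unadjusted p under 0.05), with 6 positive and 7 negative differences and a median of -0.06. The brightest were Tcf12, a dimer partner of Twist1, at 12.12 ± 0.19 in mutants and 12.42 ± 0.10 in controls, and the zinc finger factor Zeb1 at 10.89 ± 0.36 and 11.03 ± 0.10 (± SD over 4 arrays each). Tcf12 had no overlap between genotypes, mutants below controls, but did not pass (difference -0.30, limma adjusted p = 0.193). Twist2, the closest relative of Twist1, stayed below the filter on every array, between 3.12 and 3.37.

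Igf2, an imprinted growth factor gene active in fetal mesenchyme, meninges and choroid plexus, was very bright and had the largest positive difference among the members. Its brighter probe set read 13.72, 14.19, 13.99 and 13.69 on mutant arrays 1 to 4, against 13.73, 13.19, 13.36 and 13.31 on control arrays 1 to 4. Control array 1 lay inside the mutant range, while the other control arrays lay below all mutant arrays. The difference was 0.50 (SE 0.157, 95% interval 0.14 to 0.86), with an unadjusted p of 0.012 and a limma adjusted p of 0.123. A second Igf2 probe set was dim and scattered: it gave 5.94, 5.80, 6.24 and 3.90 on mutant arrays and 6.32, 4.73, 4.55 and 4.13 on control arrays. Its difference of 0.54 had a 95% interval of -0.88 to 1.95 (limma adjusted p = 0.693 over all probe sets). In the insulin-like growth factor axis around Igf2, 1 of 12 genes tested fell and none rose, with a median of -0.12. The gene that fell was Insr, the insulin receptor, at 9.50 ± 0.09 in mutants and 10.10 ± 0.20 in controls (± SD over 4 arrays each; difference -0.61, SE 0.116, limma adjusted p = 0.0236). Its call was lost in 7 of the 8 fits that left out 1 array, all but that without control array 1, with limma adjusted p from 0.052 to 0.0667, and with no filter (0.0504). When its probe sets were averaged, of which the other 2 lay at the floor on every array, the Insr difference was -0.21 (limma adjusted p = 0.144).

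The 3 proteoglycan members, Lum, Dcn and Ogn, encode lumican, decorin and osteoglycin (mimecan), secreted small leucine-rich proteins that bind collagen and regulate its fibrils. Lum and Dcn are direct neighbours on chromosome 10, ahead of Kera and Epyc of the same family, and Ogn follows Ecm2, Aspn and Omd on chromosome 13. Lum read 6.56, 7.64, 7.63 and 8.08 on mutant arrays 1 to 4, against 8.04, 7.70, 8.0 and 8.35 on control arrays 1 to 4. Mutant array 1 lay more than 1 log2 unit below every other array. The difference was -0.54 (SE 0.304, 95% interval -1.24 to 0.15, limma adjusted p = 0.346). Without mutant array 1 it was -0.24 (limma adjusted p = 0.556).

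Ogn had the most negative difference of the members. Its brighter probe set read 9.56, 10.34, 10.08 and 10.90 on mutant arrays and 10.65, 10.52, 11.12 and 11.22 on control arrays 1 to 4. Mutant array 4 alone reached into the control range. The difference was -0.66 (SE 0.286, 95% interval -1.31 to -0.000498, unadjusted p = 0.0499, limma adjusted p = 0.242). The second Ogn probe set ran the same way, at 8.35, 8.80, 8.48 and 8.73 on mutant arrays and 9.31, 8.42, 9.05 and 9.27 on control arrays (difference -0.43, adjusted p = 0.357 over all probe sets). There it was control array 2 that lay within the mutant range.

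Dcn did not pass between the genotypes. It read 10.60, 11.49, 11.19 and 11.81 on mutant arrays and 11.09, 11.06, 11.42 and 11.65 on control arrays 1 to 4, with the lowest and the highest value both from mutants. The difference was -0.03 (95% interval -0.63 to 0.57, limma adjusted p = 0.954). It turned to 0.19 without mutant array 1. A second Dcn probe set was at the floor throughout, between 2.18 and 2.35.

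Of the 7 further family members tested, none passed with the brightest probe set of each gene (limma, adjusted over all genes; 1, Fmod, at an unadjusted p under 0.05), 5 were negative, and the median was -0.43. The verdict on Fmod turned on the choice of probe set. The lowest was Fmod, fibromodulin, a proteoglycan that binds collagen fibrils. Fmod read 9.73, 10.67, 10.19 and 11.62 on mutant arrays and 11.51, 12.11, 12.41 and 12.57 on control arrays 1 to 4, so that mutant array 4 just overlapped control array 1. The difference was -1.60 (SE 0.403, limma adjusted p = 0.0693). All 6 probe sets of Fmod were lower in mutants, by -1.95 to -1.29, and 2 of them passed over all probe sets (limma adjusted p from 0.0377 to 0.126). The Fmod difference passed when the probe sets were averaged (-1.67, limma adjusted p = 0.0449), and also when the only probe set without the _x mark of possible cross-hybridisation was used (-1.52, adjusted p = 0.0252). It passed also with array weights (-2.07, adjusted p = 0.00114) and without mutant array 4 (-1.96, limma adjusted p = 0.0148). In all, Fmod passed in 5 of 19 settings, the chosen one included. It did not pass with no filter (limma adjusted p = 0.18) or with the Y-linked genes as a covariate (0.107). Leaving out any array other than mutant array 4 did not give a pass either (adjusted p up to 0.192). Bgn, which encodes biglycan, differed by 0.22 (adjusted p = 0.493). Next to Ogn on the chromosome, Omd read 6.21 ± 0.34 in mutants and 6.65 ± 0.34 in controls, and Aspn 8.85 ± 0.24 and 8.81 ± 0.37 (± SD over 4 arrays each); these neighbours were chosen after their values were seen. Kera, beside Lum, was at the floor on every array.

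Islr encodes a secreted immunoglobulin and leucine-rich repeat protein of mesenchymal stromal cells, also called meflin. It read 9.02, 9.80, 9.35 and 9.79 on mutant arrays and 9.40, 8.94, 9.17 and 9.44 on control arrays 1 to 4. Mutant arrays 2 and 4 were above all controls and the other mutant arrays among them. The difference was 0.25 (95% interval -0.20 to 0.71, limma adjusted p = 0.499). Dpt, dermatopontin, a matrix protein that binds decorin, had no measurable level: its probe set lay between 2.21 and 2.32 on all 8 arrays, within 0.5 of the lowest value on the arrays, and was not tested. A marker at the floor on every array can give no comparison of genotypes.

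Aldh1a2 and Crabp2 stand for retinoic acid, made in the embryonic meninges by the dehydrogenase that Aldh1a2 encodes and carried to nuclear receptors by the binding protein that Crabp2 encodes. Aldh1a2 read 8.32, 9.12, 8.75 and 9.75 on mutant arrays and 8.88, 8.80, 9.10 and 9.08 on control arrays 1 to 4. The control values sat close together inside the mutant range. The difference was 0.02 (95% interval -0.60 to 0.64, limma adjusted p = 0.976), and -0.23 without mutant array 4 against 0.24 without mutant array 1. Crabp2 read 8.55, 9.34, 8.67 and 9.77 on mutant arrays and 8.82, 9.24, 9.54 and 9.58 on control arrays, overlapping throughout. It differed by -0.21 (95% interval -0.88 to 0.46, limma adjusted p = 0.714). None of 9 other retinoic acid pathway genes tested passed (limma; 2 at an unadjusted p under 0.05), with a median of -0.02. The brightest of these were the receptor Rxrb, at 9.21 ± 0.16 in mutants and 9.31 ± 0.13 in controls, and the retinal reductase Dhrs3, at 8.31 ± 0.10 and 8.53 ± 0.11 (± SD over 4 arrays each). Dhrs3 lay lower on every mutant array than on any control array but did not pass (difference -0.22, limma adjusted p = 0.228). The same held for the receptor Rxra (difference -0.27, limma adjusted p = 0.162). Such separation was seen in 14.5% of all genes tested.

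Slc6a13 encodes GAT2, a transporter of GABA and taurine found in the leptomeninges. It read 8.24, 8.82, 8.38 and 9.35 on mutant arrays and 8.88, 8.70, 8.46 and 8.90 on control arrays 1 to 4, with both extremes again on mutant arrays. The difference was -0.03 (95% interval -0.58 to 0.51, limma adjusted p = 0.95), and 0.12 without mutant array 1. In a list of 7 related or neighbouring transporters of meninges and barriers, 1 fell and none rose, with a median of -0.14. The one that fell was Slc22a8, the organic anion transporter OAT3 of the barriers, at 10.34 ± 0.34 in mutants and 11.22 ± 0.27 in controls (± SD over 4 arrays each; difference -0.88, SE 0.196, limma adjusted p = 0.044). Over all probe sets the same probe set did not pass (limma adjusted p = 0.0684), and its other probe set differed by -0.21 (adjusted p = 0.769). With the mean of both probe sets the Slc22a8 difference was -0.54 (limma adjusted p = 0.0548). Its call was also lost with no filter (adjusted p = 0.123) and with the Y-linked genes as a covariate (0.0766). The call on Slc22a8 was lost in 6 of the 8 fits that left out 1 array, all but those without mutant array 2 or control array 1, with limma adjusted p from 0.0612 to 0.136.

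**Figure D2:**
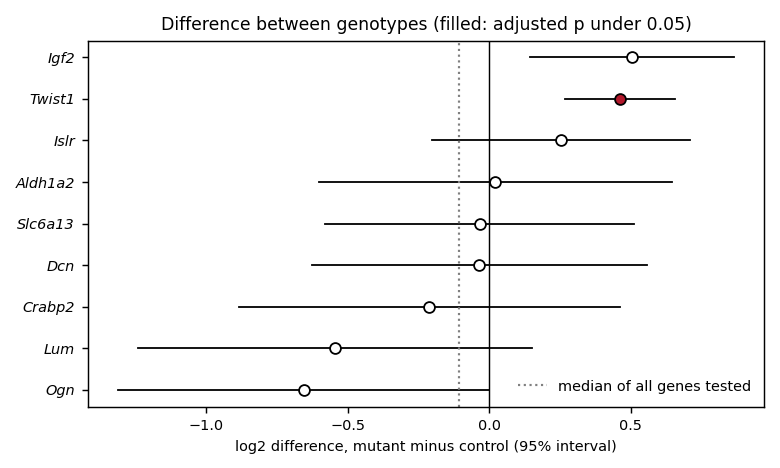
Log2 difference, mutant minus control, of the 9 members tested, with 95% intervals from the limma fit (4 arrays a genotype); the dotted line is the median of all 11446 genes tested, -0.11. The interval of Twist1 runs from 0.27 to 0.66 and is the narrowest, and those of Lum, Dcn, Islr, Slc6a13, Aldh1a2 and Crabp2 include 0.

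The intervals bear on what these arrays could show. For Dcn, Slc6a13 and Aldh1a2 they lay within -0.63 and 0.64 log2 units, and differences inside these bounds were not resolved with 4 arrays a genotype. For these genes the width came mostly from the mutant side, and the fit used a spread estimate common to both genotypes. The SD was larger in mutants than in controls for 9 of the 9 members, against 59.5% of all genes tested. For Igf2 (0.240 and 0.235) and Twist1 (0.097 and 0.074) the mutant and control SD were close. The median SD of the members was 0.515 in mutants and 0.235 in controls, where over all genes tested it was 0.207 and 0.174. The members share the same 8 arrays, so these 9 are not independent counts.

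That spread was shared. Each member was taken as its deviation from its genotype mean on each array and set against the mean of the other 8 members (9 relations, n = 8 arrays, exact two-sided permutation within genotypes over 576 arrangements, Benjamini-Hochberg over the 9). Pearson's r was 0.97 for Dcn, 0.95 for Aldh1a2, 0.94 for Ogn, 0.93 for Lum and 0.89 for Islr (exact permutation p from 0.00174, the smallest that 576 arrangements allow, to 0.0156, and adjusted p from 0.0156 to 0.0281). Spearman's rho for these genes was 0.98, 0.90, 0.90, 0.88 and 0.90 (exact permutation p from 0.00347 to 0.0208, adjusted p from 0.0104 to 0.0375). For Slc6a13 r was 0.80 and rho 0.83, and for Crabp2 r was 0.79 and rho 0.83, and neither passed. The exact permutation p of r for Slc6a13 was 0.0747 (adjusted 0.096), and for Crabp2 it was 0.059 (adjusted 0.0885); for rho the adjusted p was 0.0536 in both. Twist1 (r = 0.11, rho = 0.33) and Igf2 (r = 0.04, rho = 0.10) did not follow the others (exact permutation adjusted p of r = 0.918 for both; raw p = 0.859 for Twist1 and 0.918 for Igf2). Without mutant arrays 1 and 4, the 2 farthest from the median, r was 0.88 for Dcn, 0.83 for Aldh1a2, 0.80 for Ogn, 0.71 for Lum, 0.83 for Islr, 0.50 for Crabp2 and 0.37 for Slc6a13, so the relations of Slc6a13 and Crabp2 rested largely on those arrays. Pairs among Lum, Dcn, Ogn, Islr, Slc6a13, Aldh1a2 and Crabp2 had r from 0.64 to 0.98 with a median of 0.86, and Twist1 or Igf2 against these 7 had r from -0.28 to 0.46 with a median of 0.02; this grouping was made after the values were seen and is a description.

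Mutant array 1 held the lowest mutant value of all 7 of these genes and the lowest of all 8 arrays for 6 of them. Mutant array 4 held the highest mutant value of 6 and the highest of all arrays for 4. The share of all genes with such extremes was not counted. Mutant array 1 was also low over all genes tested, with a median value of 7.949 against 8.132 to 8.24 on the other arrays (log2). From mutant array 1 to mutant array 4 the 7 genes differed by 0.77 (Islr) to 1.52 (Lum), with a median of 1.22. The median range over the 4 control arrays was 0.59. The between-genotype differences of the same genes ran from -0.66 to 0.25. Those are differences between means of 4 arrays, while the former lie between single arrays picked after their values were seen, so their sizes are not like measures.

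**Figure D3:**
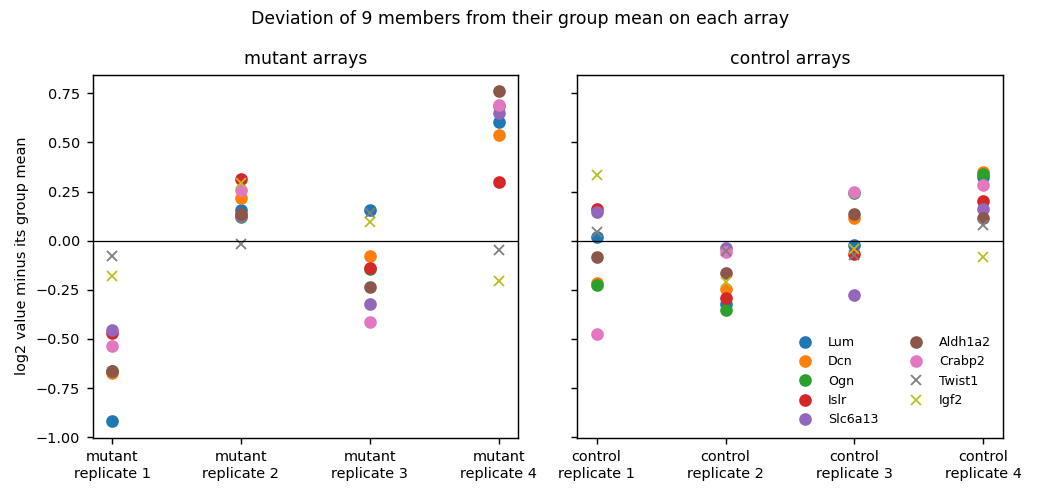
Deviation of each of the 9 members tested from its own genotype mean (log2) on the 4 mutant arrays (left) and the 4 control arrays (right); circles are Lum, Dcn, Ogn, Islr, Slc6a13, Aldh1a2 and Crabp2, crosses Twist1 and Igf2. The circles lie together below 0 on mutant array 1 and above 0 on mutant array 4, and the crosses stay near or on the other side of 0 on mutant array 4.

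Genes outside the member list were set against the mean of the 9 members in the same way, as a description over the same 8 arrays. The most alike of 11429 genes were Chsy1 (r = 0.995), a chondroitin synthase, the kinase gene Mapk8 (0.994), and Pdgfra (0.994), the PDGF receptor alpha that marks fibroblasts and oligodendrocyte precursors. Slc39a6 (0.991), 6330403K07Rik (0.989), Peli2 (0.986), Spin1 (0.986) and Trim9 (0.985) followed. The least alike were Ruvbl1 (-0.984), Usb1 (-0.976) and Tmsb4x (-0.970). Pdgfra read 8.15, 9.40, 8.88 and 9.81 on mutant arrays and 9.17, 8.79, 9.37 and 9.50 on control arrays 1 to 4, in the same order over the mutants as Aldh1a2 and most members. Its difference between genotypes was -0.14 (limma adjusted p = 0.84).

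In the wider list of brain fibroblast and meningeal genes, none of the 32 tested passed (limma, adjusted over all genes; 1 at an unadjusted p under 0.05), all 32 overlapped between genotypes, and 13 differences were positive and 19 negative with a median of -0.06. Its brightest genes were fibrillar collagens. Col3a1 read 13.55 ± 0.30 in mutants and 13.21 ± 0.06 in controls (difference 0.35, limma adjusted p = 0.231), and Col1a2 13.13 ± 0.38 and 13.08 ± 0.07 (± SD over 4 arrays each; difference 0.04, adjusted p = 0.91). The median r of the list with the member mean was 0.86. Its mean on mutant arrays 1 to 4 was 9.25, 10.00, 9.63 and 10.02, against 9.64, 9.50, 9.88 and 9.88 on control arrays 1 to 4.

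Markers of other cells moved with the members over the arrays. The 7 astrocyte and radial glia markers had a median r of 0.89 with the member mean, the 4 oligodendrocyte lineage markers 0.84, the 6 choroid plexus markers 0.73 and the 8 neuron markers 0.64. The 10 endothelial markers ran the other way, at -0.58, as did the microglia and macrophage markers at -0.36 and the 2 erythroid genes at -0.37, while pericyte (0.15) and smooth muscle (0.16) markers had median r near 0. On mutant arrays 1 to 4 the mean of the astrocyte and radial glia list was 8.22, 9.70, 9.40 and 9.89, against 9.06, 8.65, 9.04 and 9.08 on control arrays 1 to 4. The mean of the endothelial list was 11.81, 11.73, 11.78 and 11.25 on mutant arrays and 12.05, 11.76, 11.59 and 11.69 on control arrays. The oligodendrocyte lineage list averaged 6.58, 7.62, 7.64 and 8.43 on mutant arrays, and 7.49, 7.20, 7.24 and 7.50 on control arrays. Mutant array 1, low in the fibroblast members, was thus also the lowest mutant array in these glial lists, and mutant array 4 the highest there and the lowest in endothelial markers. The part of such other cells in the spread of the members was not tested. None of the astrocyte, oligodendrocyte, choroid plexus, neuron, endothelial, smooth muscle or erythroid markers passed between genotypes (limma; 0, 0, 0, 2, 3, 1 and 0 of them at an unadjusted p under 0.05), and of 10 pericyte markers 1 rose and 1, Pdgfrb, fell.

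**Figure D4:**
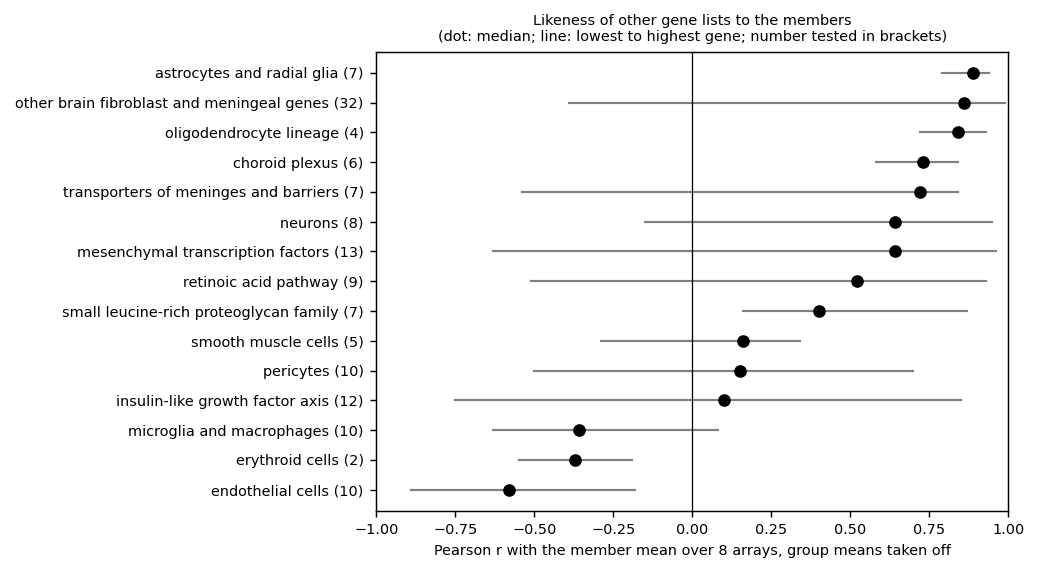
Pearson correlation of the genes of each list with the mean of the 9 members over the 8 arrays, genotype means taken off; the dot is the median of the list, the line runs from its lowest to its highest gene, and the number of genes tested is in brackets. Astrocyte and radial glia markers have a median of 0.89 and other brain fibroblast genes 0.86, and endothelial markers lie at the bottom with -0.58.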

How the data were processed

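The authors deposited a log2 value for each probe set, computed with GCRMA according to the submitters' processing notes, which name no version or option. Biotin-labelled cRNA came from 6 ug of total RNA, per the labels' protocols. GCRMA models background, normalizes by quantiles and summarises probes, so dim probe sets pile up at a floor, near which folds are compressed. The log2 scale was read from the values, 2.18 to 16.49. Arrays have no read depth; 4 arrays a genotype limit the precision. Of 45101 probe sets, 34958 had 1 symbol in the platform annotation, 932 several and 9211 none. Levels of different genes are not compared.

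Each gene was represented by its brightest probe set. Genes above 4 on at least 4 arrays were fitted with lmFit and eBayes of limma 3.58.1 (R 4.3.3), mutant minus control, two-sided, threshold 0.05. The same fit over every probe set served the other probe sets. The members and lists were chosen with earlier results of these data known. The naming rule took all members, up to 3 genes of each pathway list that passed or else its 2 brightest, the 2 brightest of each marker list, Pdgfrb, and the 8 most and 3 least alike genes; others were named after their values were seen. Alternatives were other filters, normalizations, probe set choices, spread estimates and covariates, and leaving out each array. The fit was also run on simulated data, whose outcome is not given here, and no result is drawn from it. The labels do not say what a replicate number shared by both genotypes stands for. The chosen fit did not pair arrays by it, and a fit with the number as a block was among the alternatives. No label used here gives a litter, a day of preparation or a scan, and batches could not be tested.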

Additional observations from a re-analysis of the deposited data

Results flagged for a closer look

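Both values that stood apart within a group of 4 arrays lay at the bottom of the scale. The dimmer probe set of Dcn read 2.35 on mutant array 1, against 2.18 on the other mutant arrays. Dpt read 2.32 on mutant array 4, against 2.22 on the other mutant arrays. Such a gap arises by chance in about 1 of 20 groups, 26 groups were looked at, and neither value carries a result. No other member value stood apart in this way.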

How the results depend on the processing

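Over the 18 alternatives, the 9 members gave 162 differences, of which 138 kept their direction and side of the threshold. With array weights, which put 6.6 on mutant array 3 and 0.357 on mutant array 1, 2 members were higher and 2 lower (3 and 2 of the probe sets; 895 and 2263 of all genes): Igf2 (0.62), Twist1, Ogn (-0.92) and Crabp2 (-0.66); the cause was not tested. The replicate number as a block, for numbers whose same-numbered arrays deviated with r from -0.48 to 0.30, left 0 members and 0 probe sets higher, with Twist1 at an adjusted p of 0.132, and 38 genes lower in all against 220. Under the block Insr lost its call (adjusted p = 0.0562) and Fmod gained one (0.03). Twist1 was called in 15 of 19 settings, the chosen one included, with differences from 0.415 to 0.548. Among all probe sets its call was also lost (0 higher) with each array centred on its median and with trend and robust settings. Leaving out 1 array in turn gave 0 to 1 members higher, 0 lower, 0 probe sets higher, and 189 to 302 genes higher and 65 to 238 lower in all. Genes lower in all were 135 without a filter and 142 with the Y-linked genes as a covariate. Differences near 0 changed sign: Dcn to 0.003 with the mean of its probe sets and 0.015 with the Y-linked covariate, Slc6a13 to 0.039 with a second quantile normalization and 0.026 with that covariate, and Aldh1a2 to -0.007 with centring and -0.207 with array weights. Leaving out 1 array, Dcn ran from -0.213 to 0.19, Slc6a13 from -0.252 to 0.117 and Aldh1a2 from -0.233 to 0.243.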
